A study of Homo sapiens with 12 samples.

Results

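IFI6, IFI27, IFI27L1 and IFI27L2 are the 4 human genes of the IFI27 family, and they were taken by symbol from the deposited table of 19771 protein-coding genes. Their 41 transcripts were taken from a table of 259360 annotated and assembled transcripts. RNA was measured by sequencing of total RNA from TE-1 cells, a line labelled as human oesophageal cancer, in 12 libraries. The 3 OE_IFI6 libraries came from cells given a vector that overexpresses IFI6, and the 3 OE_control libraries from cells given its control vector. The 3 sh_IFI6 libraries came from cells given an interference vector with a short hairpin against IFI6, and the 3 sh_control libraries from cells given its control. All 4 groups were transfected and grown for 48 h, so the controls were transfected too, and no source used here gives the promoter of the vectors, the hairpin sequence or any selection of transfected cells. The design text asks what changes when IFI6 is raised or lowered.

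The family encodes small, very hydrophobic membrane proteins. IFI6 and IFI27 are classical interferon-stimulated genes, and their proteins have been placed in mitochondria and, for IFI6, in the endoplasmic reticulum, with roles in cell survival and in the restriction of viruses. IFI27L1 and IFI27L2 are their less studied relatives. Type I interferon signals through the receptor chains IFNAR1 and IFNAR2 to the kinases JAK1 and TYK2, and a transcription factor complex that holds IRF9 then binds a promoter element, the interferon-stimulated response element (ISRE).

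IFI6 lay alone on chromosome 1, and the other 3 genes lay in a cluster on chromosome 14. The deposited bounds were chr1:27666064-27672198 for IFI6 (ENSG00000126709), chr14:94081301-94116698 for IFI27L1 (ENSG00000165948), chr14:94104836-94116698 for IFI27 (ENSG00000165949) and chr14:94127779-94130253 for IFI27L2 (ENSG00000119632). In GENCODE 29 (GRCh38), IFI6 and IFI27L2 are on the minus strand and IFI27L1 and IFI27 on the plus strand. The deposited span of IFI27L1 covered that of IFI27 through 1 assembled transcript, which was above 0 in a single library. The nearest other protein-coding genes were FGR and FAM76A beside IFI6, and DDX24 and PPP4R4 on the sides of the cluster. FGR and PPP4R4 were near 0 (highest values 0.0459 and 0.0171 FPKM), while FAM76A lay at 2.77 to 4.15 FPKM and DDX24 at 17.8 to 32.5 FPKM. FPKM counts fragments per length of transcript and per library size.

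The 3 annotated IFI6 transcripts are all protein-coding, and they differ in their coding part at the end of exon 2, where an alternative splice site adds bases. The junction of exon 2 (end nearer exon 3 at 27669245 in IFI6-202) with exon 3 (27668458 to 27668535) is shown because the 3 transcripts are reported separately below. They were not tested against each other. Each sequence holds the last 20 bases shared by all 3 in exon 2, the added bases in capitals, and the first 20 bases of exon 3, read 5′ to 3′ on the minus strand from the GENCODE 29 transcripts (GRCh38).
IFI6-202: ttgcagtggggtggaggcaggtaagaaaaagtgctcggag
IFI6-203: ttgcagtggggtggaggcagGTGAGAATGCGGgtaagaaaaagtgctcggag
IFI6-201: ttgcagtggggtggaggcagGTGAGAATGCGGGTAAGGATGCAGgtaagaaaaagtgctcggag
IFI6-203 carries 12 added bases (4 codons) and IFI6-201 carries 24 (8 codons), of which the first 12 are those of IFI6-203. The coding parts are 390 bases in IFI6-202, 402 in IFI6-203 and 414 in IFI6-201, so reading frame is kept.

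The promoters of the 2 interferon-stimulated members are shown because they held the core letters of the ISRE, and those of the other 2 did not. The windows are the 250 bases before a RefSeq start (GRCh38.p14), 5′ to 3′ on the gene's strand, chr1:27672193-27672442 (minus strand) for IFI6 and chr14:94110486-94110735 (plus strand) for IFI27. The capitals mark the ISRE core, GAAA, 2 bases of any kind and GAAA, or its reverse complement, TTTC, 2 bases and TTTC.
IFI6: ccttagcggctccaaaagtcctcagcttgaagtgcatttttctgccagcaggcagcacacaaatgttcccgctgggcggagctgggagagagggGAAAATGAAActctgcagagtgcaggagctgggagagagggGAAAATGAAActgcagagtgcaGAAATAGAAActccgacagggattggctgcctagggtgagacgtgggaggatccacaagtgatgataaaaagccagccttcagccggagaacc
IFI27: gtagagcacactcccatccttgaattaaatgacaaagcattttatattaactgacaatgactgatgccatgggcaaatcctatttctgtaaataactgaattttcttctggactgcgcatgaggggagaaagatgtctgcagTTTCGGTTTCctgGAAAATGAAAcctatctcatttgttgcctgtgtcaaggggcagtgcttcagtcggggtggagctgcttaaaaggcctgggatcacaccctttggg
The IFI6 window held 3 matches, which began 156, 115 and 93 bases before the start. The IFI27 window held 2 matches, and a second RefSeq start of IFI27 had the same 2 within its window. The core of another interferon-response element, the gamma-activated sequence, TTCNNNGAA, matched once in IFI27, where it overlapped both ISRE matches, and not in the IFI6 window. The windows of IFI27L1 and IFI27L2 held neither set of letters. Of 35116 RefSeq promoter windows of this length, 3.02% held at least 1 ISRE core, 0.225% at least 2 and 0.0228% at least 3, and 6.57% held the gamma-activated sequence core. A match is a description of letters and not a measured binding site.

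The libraries held 325877 to 357145 FPKM summed over protein-coding genes, with 10650 to 10987 such genes at 1 FPKM or more. FPKM is already divided by library size, so these sums do not show how deeply each library was sequenced. A principal component analysis set OE_control apart, with scores of 30.6, 22.2 and 22.3 for its libraries on the leading axis (23.1% of variance) and scores of -11.3 to -5.89 for the remaining 9. Comparisons with OE_control are therefore given beside OE_IFI6 against sh_control, whose difference does not use those libraries but sets together 2 vector types. Its spread, as for every limma comparison of the main fit, was estimated from all 12 libraries. The cell label was checked on markers of squamous oesophageal epithelium. KRT5, KRT6A, SOX2 and EPCAM were at 0 in all 12 libraries, KRT14, DSG3 and CDH1 had means under 0.1 FPKM, TP63 had a mean of 0.101 FPKM, and only KRT17 (1.51 FPKM) and DSP (38.4 FPKM) exceeded 1 FPKM. The summed squamous markers were 41.4 to 58.1 FPKM in OE_IFI6 and 31.4 to 34.5 in OE_control, and 29.9 to 39.7 in sh_IFI6 and 46.0 to 46.3 in sh_control. DSP made up most of these sums, and the 2 tested squamous markers went opposite ways in OE_IFI6 against OE_control, DSP with a rise (46.4 and 28.9 FPKM, log2 0.65, limma adjusted p = 0.0152) and KRT17 with a fall (0.724 and 3.65 FPKM, log2 -1.44, limma adjusted p = 0.00117). Between OE_IFI6 and sh_control neither passed (limma adjusted p = 0.999 for both). Of 6 fibroblast markers, all but COL1A2 lay between 1.28 and 2.14 FPKM on average (summed 6.82 to 9.42 FPKM over the groups), and the 7 immune and endothelial markers summed to 0.594 to 1.07 FPKM in OE_IFI6 against 1.52 to 1.85 in OE_control, and to 0.988 to 2.17 in sh_IFI6 against 0.765 to 1.19 in sh_control, with CD3E at 0. The part of these differences in the results below was not tested.

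IFI6 was the most abundant member in every library, and its level moved in the direction of each label. In sh_control its mean was 3.84 times that of IFI27L1, and in sh_IFI6 the means of IFI6 and IFI27L1 were 14.6 and 7.81 FPKM. The 3 OE_IFI6 libraries had 309, 268 and 358 FPKM of IFI6, against 27.3, 17.9 and 28.8 FPKM in the OE_control libraries. The lowest OE_IFI6 library was 9.31 times the highest of the other 9 libraries. The mean was 312 ± 45.0 FPKM in OE_IFI6 and 24.7 ± 5.92 FPKM in OE_control (SD, n = 3 each), a ratio of 12.6. On log2(FPKM + 1), IFI6 rose by 3.62 (SE 0.17; limma adjusted p = 4.73e-07 over 10925 tested genes). Of those genes, 7.66% passed in either direction at an adjusted p under 0.05, and 4.1% rose. Ranked by mean level among 19771 genes, IFI6 stood at position 141 in OE_IFI6 and at position 2439 in OE_control. In bulk RNA, a high level in part of the cells and a moderate one in all cells cannot be told apart. Reads from the overexpression vector also cannot be separated here from those of the cells' own IFI6.

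In the hairpin arm, the sh_IFI6 libraries had 15.1, 13.9 and 14.7 FPKM of IFI6, against 24.9, 24.1 and 21.2 FPKM in the sh_control libraries. The groups did not overlap, and the sh_IFI6 mean of 14.6 ± 0.646 FPKM was 62.3% of the sh_control mean of 23.4 ± 1.97 FPKM (SD, n = 3 each). The log2 difference of -0.64 (SE 0.17, 95% interval -1.01 to -0.28) had an unadjusted limma p of 0.00241 and missed the threshold once adjusted (limma adjusted p = 0.818). In that comparison 0 of 10925 genes passed (0%), also after median-of-ratios or quantile scaling, and 563 genes had an unadjusted limma p under 0.05. Fitted on only the libraries compared, the IFI6 difference had an SE of 0.093 and a limma adjusted p of 0.31. The two-sided exact permutation test gave p = 0.1 for IFI6 in both arms, the smallest that 3 against 3 libraries allow. The overexpression effect exceeded the hairpin effect by 4.27 on the log2 scale (limma adjusted p = 3.77e-06), where 2.69% of all tested genes passed.

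Across the 4 groups the order of IFI6 levels was OE_IFI6, OE_control, sh_control and sh_IFI6. OE_control and sh_control were neighbours that overlapped, with a log2 difference of 0.05 (95% interval -0.32 to 0.42; limma adjusted p = 0.886), in a comparison where 7.52% of all tested genes passed. sh_IFI6 lay below every library of the other groups. OE_IFI6 exceeded sh_control by 3.67 on the log2 scale (limma adjusted p = 8.11e-07). Only 2 of 10925 genes (0.0183%) passed in that comparison, IFI6 and RBMXL1, a retrocopy of the RNA-binding protein gene RBMX.

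**Figure D1:**
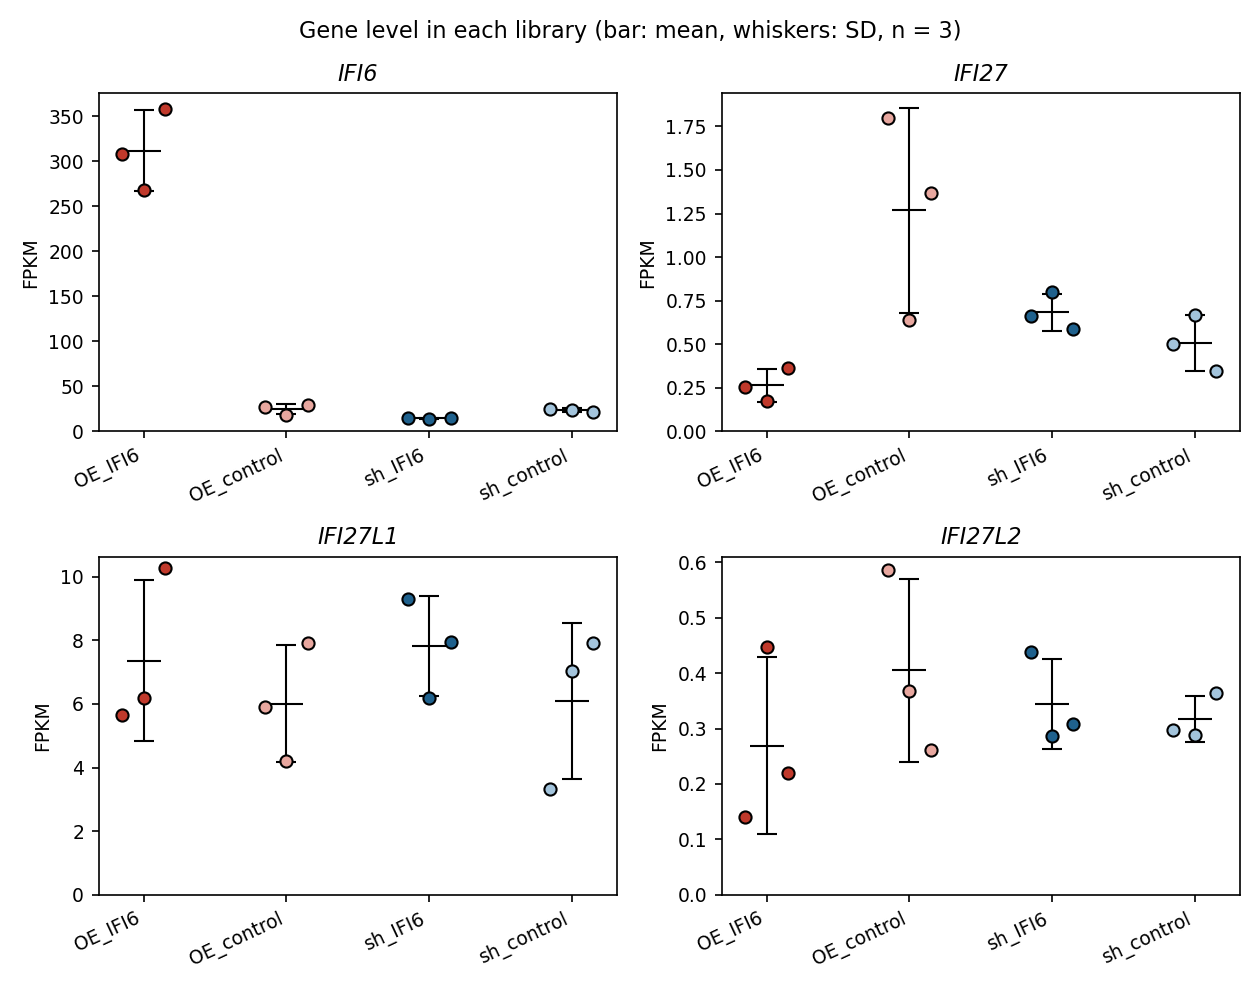
FPKM of each of the 4 genes (vertical axes, linear and different for each gene) in every library, by group; points are libraries, horizontal bars the mean of 3 and whiskers the SD. IFI6 lies at 268 to 358 FPKM in OE_IFI6 and at or below 28.8 FPKM elsewhere, and IFI27 is highest in OE_control and lowest in OE_IFI6.

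The rise of IFI6 lay mostly in 1 listed transcript, IFI6-202. No source used here gives the insert of the vector. In these values, its reads and those of the cells' own gene cannot be told apart, also for the shares below. Of the family's 41 transcripts, 35 were above 0 in any library, 12 had a mean of at least 0.1 FPKM, and 5 reached the 1 FPKM needed for the test. IFI6-202 (ENST00000361157), the form without added bases at the exon 2 junction, had 303, 258 and 351 FPKM in the OE_IFI6 libraries and 24.8, 13.5 and 25.1 FPKM in the OE_control libraries. It rose by 3.82 on the log2 scale (SE 0.23; limma adjusted p = 8.68e-05 over 28221 transcripts, of which 1.16% passed), and by 3.78 against sh_control (limma adjusted p = 0.000137). IFI6-203, with 12 added bases, averaged 4.41 ± 1.31 FPKM in OE_IFI6 and 2.93 ± 1.08 FPKM in OE_control (SD, n = 3 each), and its log2 difference of 0.47 (95% interval -0.07 to 1.01) did not pass (limma adjusted p = 0.463). Against sh_control, at 1.20 ± 0.182 FPKM, the difference of OE_IFI6 was larger, at 1.27 (95% interval 0.73 to 1.81) with no overlap, an unadjusted limma p of 0.000419 and a limma adjusted p of 0.282. IFI6-201, with 24 added bases, was erratic, at 0.834, 7.66 and 1.49 FPKM in OE_IFI6 against 0.0598, 0.281 and 1.60 FPKM in OE_control, and did not pass (log2 1.16, limma adjusted p = 0.534; 1.03 against sh_control, limma adjusted p = 0.996). The transcripts differ by few bases, so the split between them rests on few reads.

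As a share of the gene's FPKM, IFI6-202 made up 97.4% ± 1.23 in OE_IFI6 and 84.3% ± 8.09 in OE_control (SD, n = 3 each). The groups did not overlap, and the difference was 13.1 percentage points (two-sided exact permutation p = 0.1). The share of IFI6-203 was 1.39% ± 0.232 in OE_IFI6 and 13.2% ± 8.68 in OE_control, also without overlap (difference of -11.8 points, exact permutation p = 0.1). OE_control replicate 2 had the highest share, 23.2%, and without it the difference was -6.85 points. The sh_control share of IFI6-203 was 5.16% ± 0.732 (SD, n = 3). In the hairpin arm IFI6-202 had a share of 91.7% ± 2.46 in sh_IFI6 and 90.1% ± 8.53 in sh_control, and these overlapped. Its level was 13.4 ± 0.935 FPKM in sh_IFI6 and 21.1 ± 2.34 FPKM in sh_control (log2 -0.61, limma adjusted p = 0.89). IFI6-203 had close means in those groups, at 1.19 ± 0.328 FPKM in sh_IFI6 and 1.20 ± 0.182 FPKM in sh_control (SD, n = 3 each; 95% interval of the log2 difference -0.56 to 0.53). In sh_control the 3 IFI6-201 values were 0.0691, 3.34 and 0 FPKM, and that 1 library put IFI6-201 at 13.8% of the gene.

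**Figure D2:**
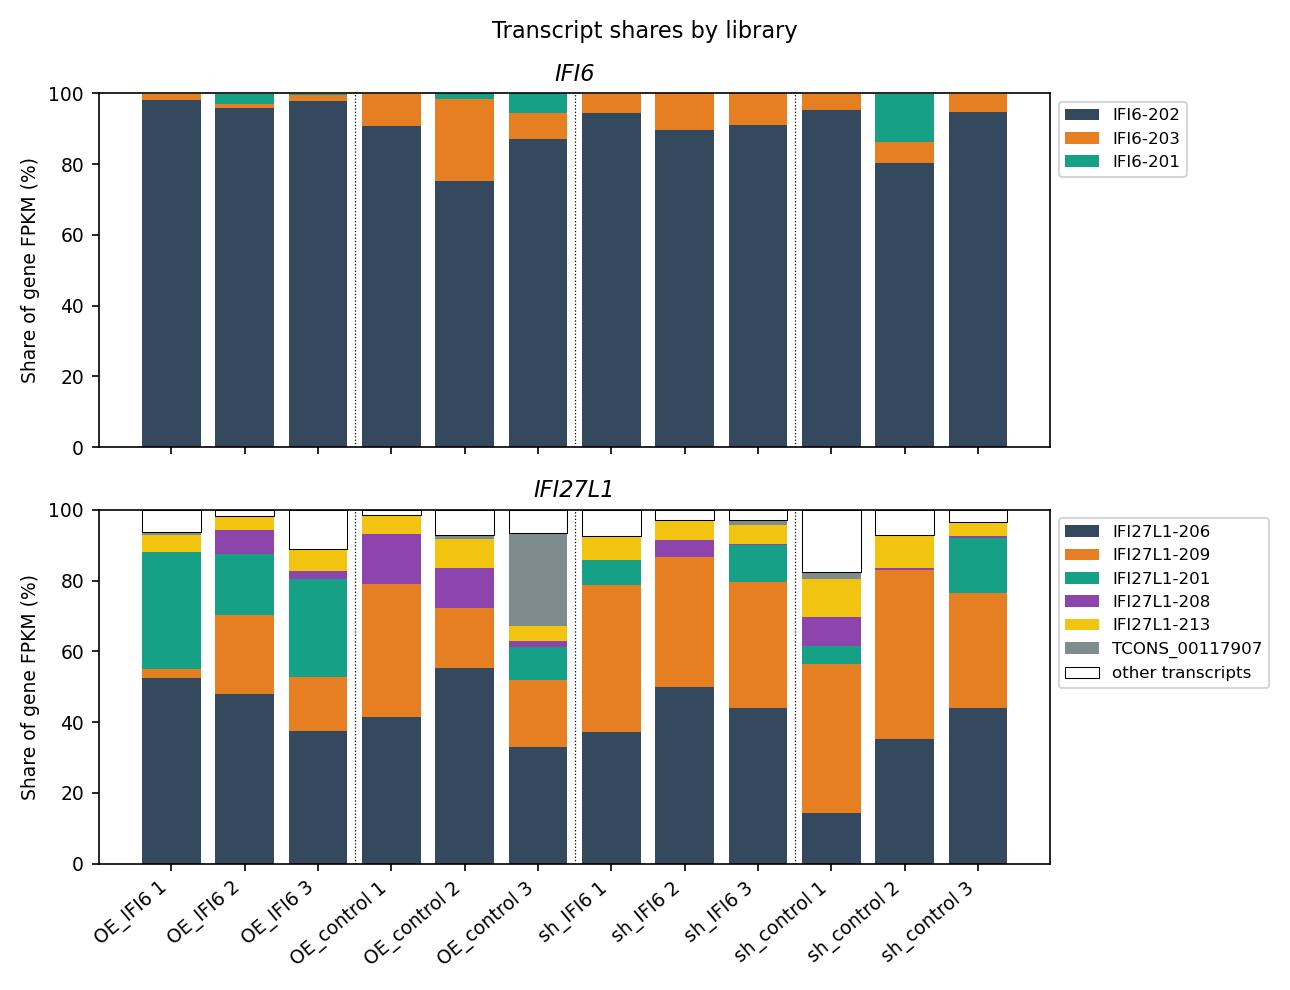
Share of each gene's FPKM (vertical axis, percent) held by each transcript in the 12 libraries, IFI6 above and IFI27L1 below; dotted lines separate the groups. IFI6-202 takes 96.0% to 98.3% of IFI6 in OE_IFI6 and 75.2% to 90.7% in OE_control, and IFI27L1-201 takes 17.2% to 32.9% of IFI27L1 in OE_IFI6 and at most 9.41% in OE_control.

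Transcripts of another gene are also listed at the IFI6 locus, and the values of 1 of them moved with those of IFI6. The assembled transcript TCONS_00003259 is assigned in the deposited table to AL445490.1 (ENSG00000225886), which GENCODE 29 gives as an antisense gene on the plus strand. It spanned chr1:27666184-27672220 and so overlapped 98.0% of the IFI6 span (6015 of 6135 bases), whereas the annotated AL445490.1 begins at 27669468. Of the gene's 8 deposited transcripts, 5 were at 0 in every library, and a second assembled one, TCONS_00003260, averaged 0.836 ± 0.261 FPKM in OE_IFI6 and 0.393 ± 0.463 FPKM in OE_control (SD, n = 3 each), with overlap. TCONS_00003259 had 54.3, 42.8 and 56.0 FPKM in OE_IFI6, against 4.87, 3.19 and 4.63 FPKM in OE_control. It rose by 3.32 on the log2 scale (SE 0.18; limma adjusted p = 4.43e-05), and by 3.66 against sh_control (limma adjusted p = 6.99e-05). In the hairpin arm it had 2.64, 1.96 and 1.93 FPKM in sh_IFI6 and 3.33, 2.75 and 3.18 FPKM in sh_control, without overlap, and did not pass (log2 -0.37, limma adjusted p = 0.921), as 0.0283% of all transcripts did. The difference of the overexpression and hairpin effects was 3.69 (limma adjusted p = 0.000431), where 0.273% of all transcripts passed.

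The level of this transcript was 16.4% ± 1.05 of the IFI6 level in OE_IFI6 and 17.2% ± 1.0 in OE_control, and 14.9% ± 2.23 in sh_IFI6 and 13.3% ± 1.82 in sh_control (SD, n = 3 each). The groups overlapped in both arms (two-sided exact permutation p = 0.2 in the overexpression arm and 0.5 in the hairpin arm). The strand of the assembled transcript is not in the deposited table, and the sources used here do not say whether counting used strand, so reads of IFI6 and of this transcript cannot be told apart.

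**Figure D3:**
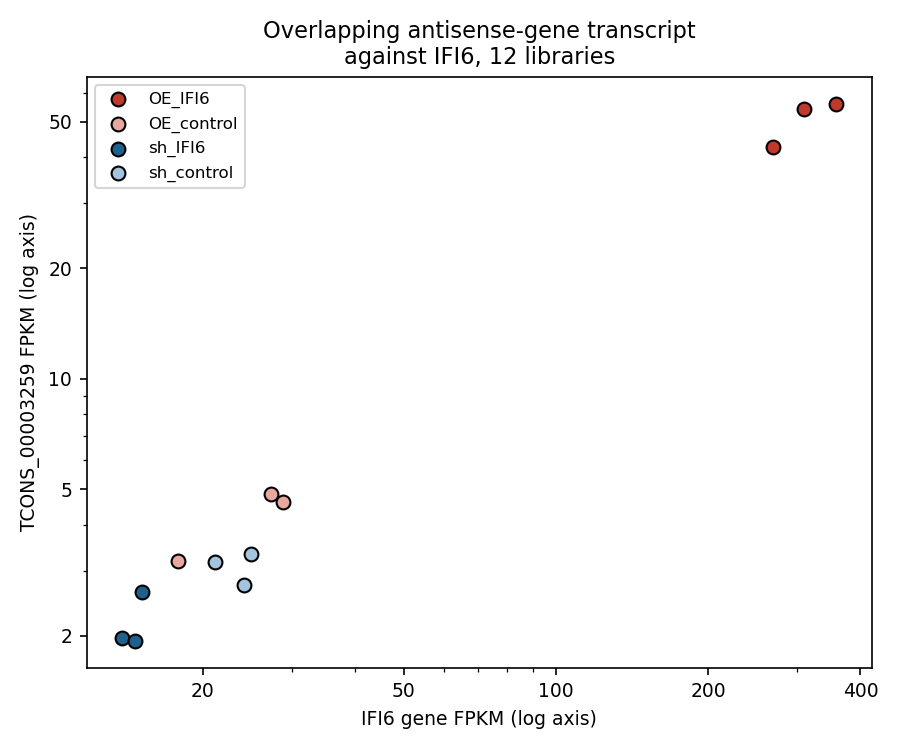
FPKM of TCONS_00003259 (vertical log axis) against FPKM of IFI6 (horizontal log axis) in the 12 libraries, coloured by group. The 3 OE_IFI6 libraries lie at 42.8 to 56.0 FPKM of the transcript and the other 9 at or below 4.87 FPKM.

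IFI27, the member most used as a marker of interferon exposure, was low in these cells and had its lowest mean in OE_IFI6. Its levels were 0.256, 0.172 and 0.362 FPKM in OE_IFI6, against 1.80, 0.636 and 1.37 FPKM in OE_control. The groups did not overlap, and OE_IFI6 stood at 20.8% of OE_control (0.264 ± 0.0951 FPKM and 1.27 ± 0.587 FPKM; SD, n = 3 each; two-sided exact permutation p = 0.1). Its mean over the 12 libraries was under 1 FPKM, so it was not among the 10925 tested genes. IFI6 and IFI27L1 passed that filter, and IFI27 and IFI27L2 did not. In the fit without the filter (16074 genes, of which 5.5% passed), IFI27 fell by 0.81 on the log2(FPKM + 1) scale (SE 0.17; limma adjusted p = 0.0229).

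Against the other control the difference was smaller and did not pass. IFI27 had 0.499, 0.670 and 0.347 FPKM in sh_control, which overlapped OE_IFI6, and OE_IFI6 stood at 52.2% of its mean. The log2 difference of OE_IFI6 from sh_control was -0.25 (95% interval -0.62 to 0.12; limma adjusted p = 1 in the fit without the filter, where 0.0124% of genes passed). OE_control and sh_control overlapped and differed by 0.56 (limma adjusted p = 0.0892), where 5.39% of genes passed. The sh_IFI6 libraries had 0.664, 0.799 and 0.587 FPKM of IFI27 and did not differ from sh_control beyond the spread (log2 0.16, 95% interval -0.21 to 0.54; limma adjusted p = 0.901). The difference between the overexpression and the hairpin effects was -0.98 (limma adjusted p = 0.0745), where 2% of genes passed. In order of level the groups ran OE_control, sh_IFI6, sh_control and OE_IFI6, and each overlapped its neighbour.

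The call for IFI27 against OE_control was lost without any 1 of 4 libraries (limma adjusted p = 0.064 without OE_IFI6 replicate 1, 0.078 without OE_IFI6 replicate 2, 0.053 without OE_control replicate 1 and 0.075 without OE_control replicate 3) and when only the 6 libraries compared were fitted (0.18). With a pseudocount of 0.1 in place of 1, IFI27 fell by 1.84 against OE_control (limma adjusted p = 0.015), its difference from sh_control was -0.73 (limma adjusted p = 1), and the difference of effects was -2.24 (limma adjusted p = 0.053). Values this low rest on few fragments. Low FPKM values lay on steps, 59.5 to 76.7 per kilobase at 1 FPKM, and a transcript of 0.644 kb at the IFI27 level would hold 6.95 to 14.6 steps in OE_IFI6 and 24.8 to 70.0 in OE_control. No source used here says what 1 step stands for in fragments.

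None of the 15 IFI27 transcripts reached a mean of 1 FPKM, 11 were above 0 in any library, and 2 had a mean of at least 0.1 FPKM. Of these 2, GENCODE 29 gives IFI27-209 as a retained intron (mean 0.299 FPKM, against 0.680 FPKM for the gene) and IFI27-215 as protein-coding. IFI27-209 averaged 0.144 ± 0.142 FPKM in OE_IFI6 and 0.520 ± 0.596 FPKM in OE_control, and 0.336 ± 0.222 FPKM in sh_IFI6 and 0.195 ± 0.101 FPKM in sh_control (SD, n = 3 each), with overlap in both arms. IFI27-215 was listed at 0 in 10 of 12 libraries, with 0.787 FPKM in OE_control replicate 1 and 0.501 FPKM in sh_IFI6 replicate 2. The length of 0.644 kb used for the steps above is that of IFI27-215.

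IFI27L1 was expressed at a moderate level in every library and did not pass the test in either arm. It had 5.65, 6.18 and 10.3 FPKM in OE_IFI6, against 5.92, 4.22 and 7.90 FPKM in OE_control. It had 9.31, 6.17 and 7.94 FPKM in sh_IFI6, against 3.32, 7.04 and 7.92 FPKM in sh_control. The groups overlapped in both arms. The log2 difference was 0.25 in the overexpression arm (95% interval -0.40 to 0.90; limma adjusted p = 0.678) and 0.36 in the hairpin arm (95% interval -0.29 to 1.02; limma adjusted p = 0.83). OE_IFI6 exceeded sh_control by 0.27 (95% interval -0.39 to 0.92; limma adjusted p = 0.999). The sizes rested on single libraries, with the overexpression difference at 0.01 without OE_IFI6 replicate 3, 0.05 without OE_control replicate 2 and 0.44 without OE_control replicate 3, and the hairpin difference at 0.04 without sh_control replicate 1 and 0.56 without sh_control replicate 3. By mean level the groups ran sh_IFI6, OE_IFI6, sh_control and OE_control, and no neighbours differed beyond their spread.

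Of the 16 IFI27L1 transcripts, 6 had a mean of at least 0.1 FPKM, and IFI27L1-206 and IFI27L1-209 held most of the gene's FPKM. IFI27L1-206, with the highest mean over the 12 libraries (2.80 FPKM), had 2.96, 2.95 and 3.86 FPKM in OE_IFI6 and 2.45, 2.33 and 2.62 FPKM in OE_control. Those groups did not overlap, yet the log2 difference of 0.29 did not pass (limma adjusted p = 0.781). It had 3.47, 3.08 and 3.49 FPKM in sh_IFI6 and 0.476, 2.48 and 3.48 FPKM in sh_control, with overlap (log2 0.61, limma adjusted p = 0.921). OE_IFI6 exceeded sh_control by 0.58 (limma adjusted p = 0.996). IFI27L1-209 averaged 1.03 ± 0.765 FPKM in OE_IFI6 and 1.47 ± 0.755 FPKM in OE_control, and 2.99 ± 0.817 FPKM in sh_IFI6 and 2.44 ± 0.987 FPKM in sh_control (SD, n = 3 each). It did not pass in the overexpression arm (limma adjusted p = 0.778) or in the hairpin arm (limma adjusted p = 0.951), and its difference of OE_IFI6 from sh_control was -0.81 (limma adjusted p = 0.996). In sh_control it held a larger share of the gene (40.7% ± 7.73) than IFI27L1-206 did (31.2% ± 15.2; SD, n = 3).

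IFI27L1-201 was higher in each OE_IFI6 library than in each OE_control library. Its mean over all libraries was under 1 FPKM, so limma did not test it. It had 1.86, 1.06 and 2.86 FPKM in OE_IFI6, against 0, 0 and 0.744 FPKM in OE_control. Its share of the gene was 26.0% ± 8.02 in OE_IFI6 and 3.14% ± 5.43 in OE_control (SD, n = 3 each), a difference of 22.9 points without overlap (two-sided exact permutation p = 0.1). In the hairpin arm the shares overlapped, at 5.80% ± 5.33 in sh_IFI6 and 6.96% ± 8.04 in sh_control. Of the sh_control libraries, 1 reached 1.25 FPKM, which lay inside the OE_IFI6 range. How often other transcripts show no overlap between OE_IFI6 and OE_control was not computed. IFI27L1-201 is much like IFI27L1-209 in GENCODE 29, with 674 and 680 bases, 5 exons and 312 coding bases each. Both end at 94102709. Reads of these transcripts may therefore not have been separable. The share of IFI27L1-209 was 13.4% ± 10.0 in OE_IFI6 and 24.4% ± 11.5 in OE_control (SD, n = 3 each), with overlap. A shift between the forms was not tested. IFI27L1-208 and IFI27L1-213 averaged under 0.5 FPKM in every group and overlapped in both arms, and the assembled transcript TCONS_00117907 was near 0 except for 2.08 FPKM in 1 OE_control library. GENCODE 29 gives IFI27L1-213 as a retained intron.

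IFI27L2 was low in every library. It had 0.140, 0.448 and 0.219 FPKM in OE_IFI6, against 0.586, 0.368 and 0.261 FPKM in OE_control, and 0.438, 0.287 and 0.308 FPKM in sh_IFI6, against 0.298, 0.289 and 0.364 FPKM in sh_control. The groups overlapped in both arms. In the fit without the filter its log2 difference was -0.15 in the overexpression arm (95% interval -0.37 to 0.07; limma adjusted p = 0.476) and 0.03 in the hairpin arm (95% interval -0.19 to 0.25; limma adjusted p = 1), and OE_IFI6 differed from sh_control by -0.06 (95% interval -0.28 to 0.16; limma adjusted p = 1). Of its 7 transcripts, IFI27L2-203 alone had a mean of at least 0.1 FPKM (0.270 FPKM, against 0.334 FPKM for the gene). GENCODE 29 gives that form as a retained intron. The protein-coding IFI27L2-201 averaged 0.0101 FPKM, and the protein-coding IFI27L2-206 was at 0 in every library. IFI27L2-203 averaged 0.235 ± 0.206 FPKM in OE_IFI6 and 0.307 ± 0.258 FPKM in OE_control, and 0.233 ± 0.112 FPKM in sh_IFI6 and 0.303 ± 0.0585 FPKM in sh_control (SD, n = 3 each). Over the 9 libraries that are not OE_IFI6, Pearson's r of log2 levels was 0.467 between IFI6 and IFI27, -0.228 between IFI6 and IFI27L1 and 0.102 between IFI6 and IFI27L2, as a description of libraries that share groups.

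More of the other interferon-stimulated genes fell than rose in OE_IFI6 against OE_control. Against sh_control, 0 of the 38 tested passed. A list of 60 such genes without the family was used, 59 were in the table, and 38 were tested. Against OE_control, 2 rose in OE_IFI6, 8 fell, and 28 did not pass, with a median log2 difference of -0.13 (0.0465 over all tested genes, of which 4.1% rose and 3.56% fell). The 2 of smallest p in each comparison with a call came from OASL, which encodes an oligoadenylate synthetase-like protein, IFI44, and ISG15, a ubiquitin-like modifier. OASL had 1.64, 1.75 and 1.88 FPKM in OE_IFI6, against 8.75, 10.1 and 8.44 FPKM in OE_control (log2 -1.87, SE 0.14; limma adjusted p = 1.63e-05). ISG15 averaged 14.7 ± 2.18 FPKM in OE_IFI6 and 41.0 ± 5.99 FPKM in OE_control (SD, n = 3 each; log2 -1.42, limma adjusted p = 9.85e-05). IFI44 averaged 1.15 ± 0.345 FPKM in OE_IFI6 and 5.69 ± 0.987 FPKM in OE_control (log2 -1.64, limma adjusted p = 6.32e-05). The 2 that rose, named after their values were seen, were SAMHD1, a dNTP hydrolase (log2 0.59, limma adjusted p = 0.0462), and IFIT5 (log2 0.47, limma adjusted p = 0.0356), and neither passed in 10 of the 12 fits that left out a library (1 passed without OE_IFI6 replicate 1 or OE_control replicate 2). The count of falls was 5 without OE_IFI6 replicate 1, OE_IFI6 replicate 2, OE_control replicate 1 or OE_control replicate 3.

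The same list also differed between the controls. In OE_control, 9 of the 38 were above sh_control and 1, TRIM14 (log2 -0.50, limma adjusted p = 0.0194; named after its value was seen), was below, with a median of 0.12 against -0.0865 over all genes (2.75% rose and 4.78% fell). OASL was at 9.08 ± 0.862 FPKM in OE_control and 1.35 ± 0.150 FPKM in sh_control (log2 2.10, limma adjusted p = 1.5e-05), and ISG15 at 41.0 ± 5.99 and 15.9 ± 0.729 FPKM (SD, n = 3 each; log2 1.30, limma adjusted p = 0.000243). IFI44 averaged 5.69 FPKM in OE_control and 1.33 FPKM in sh_control (log2 1.51, limma adjusted p = 0.000158). The count of 9 was 4 without sh_control replicate 1 or 2 and 5 without sh_control replicate 3, and TRIM14 was lost without OE_control replicate 1 or sh_control replicate 2 or 3, while 2 genes fell without OE_control replicate 2. Between OE_IFI6 and sh_control 0 of the 38 passed in limma, where 503 of all genes had an unadjusted p under 0.05, and the median was -0.00335 (-0.038 over all genes). OASL was 0.23 higher in OE_IFI6 than in sh_control (limma adjusted p = 0.999). In the hairpin arm 0 of 38 passed in either direction, with a median of 0.0197 (0.0048 over all genes). The comparisons with OE_control share its libraries.

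**Figure D4:**
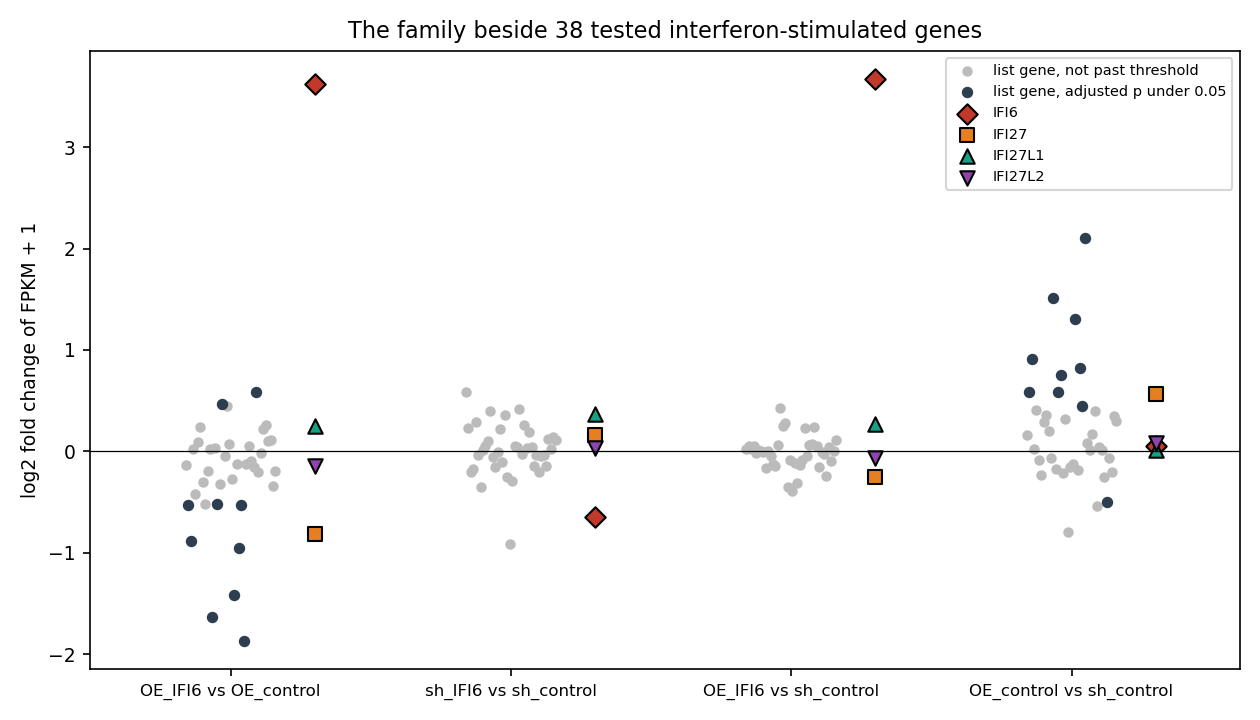
Log2 fold change of FPKM + 1 (vertical axis) of the 38 tested interferon-stimulated genes (grey, dark where the limma adjusted p is under 0.05) and of the 4 family members (coloured symbols) in 4 comparisons; IFI27 and IFI27L2 come from the fit without the filter. IFI6 lies at 3.62 and 3.67 in the comparisons with OE_IFI6, far above the list, and 8 list genes lie below 0 past the threshold against OE_control and 0 against sh_control.

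Most genes of the interferon signal itself lay under the filter or did not pass the test. Of 8 ligand genes, 6 were at 0 in all 12 libraries and the highest value was 0.207 FPKM, for IFNE. Of 29 signal genes 18 were tested, and in OE_IFI6 against OE_control 0 rose and 3 fell (4.1% of all tested genes rose and 3.56% fell), IL10RB, a receptor chain (log2 -0.93, limma adjusted p = 0.0121), IRF2, a repressor of interferon genes (log2 -0.49, limma adjusted p = 0.0211), and SOCS3, a feedback inhibitor (log2 -0.50, limma adjusted p = 0.0294), named after their values were seen. In the hairpin arm, between the controls and between OE_IFI6 and sh_control, 0 of the 18 passed in limma. IL10RB averaged 12.3 ± 1.48 FPKM in OE_IFI6 and 21.1 ± 1.01 FPKM in sh_control (SD, n = 3 each), without overlap. That log2 difference of -0.73 had an unadjusted limma p of 0.00229 and did not pass (limma adjusted p = 0.802). IRF9, at 1.51 ± 0.256 FPKM in OE_IFI6 and 2.04 ± 0.408 FPKM in OE_control (SD, n = 3 each), did not pass (limma adjusted p = 0.336). In the promoter windows, 27 of the 47 matched interferon-stimulated list genes (57.4%) held an ISRE core, against 3.71% of 27305 genes.

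The genes whose pattern was most like that of IFI6 over the 12 libraries were those that set OE_IFI6 apart. RBMXL1 had the highest Pearson's r (0.961, with a Spearman's rho of 0.587), then RCN1, a calcium-binding protein of the endoplasmic reticulum (r = 0.895), and C5orf24 (r = 0.875). These values rest on the OE_IFI6 libraries, since without them r was 0.0963 for RBMXL1, -0.281 for RCN1 and -0.676 for C5orf24. RBMXL1 had 6.61, 9.39 and 7.01 FPKM in OE_IFI6, against 1.76, 2.32 and 1.84 FPKM in OE_control (log2 1.54, SE 0.13; limma adjusted p = 6.12e-05). Its sh_IFI6 and sh_control means were 1.80 and 2.06 FPKM. The reads of RBMXL1 and RBMX may not have been separable, so its level is uncertain.

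Over the 9 libraries that are not OE_IFI6, the genes most like IFI6 were GPX8, a peroxidase of the endoplasmic reticulum (r = 0.937), KLF7, a transcription factor (r = 0.932), and BCHE, the butyrylcholinesterase gene (r = 0.92). GPX8 averaged 5.85 FPKM in sh_IFI6 and 10.0 FPKM in sh_control (log2 -0.68), and it did not pass (limma adjusted p = 0.818). The hairpin differences of KLF7 and BCHE were -0.20 and -0.21 (limma adjusted p = 0.818 for each). In OE_IFI6 against OE_control, where IFI6 rose by 3.62 on the log2 scale, none of these genes passed. Their log2 differences there were 0.14 for GPX8, -0.20 for KLF7 and 0.23 for BCHE (limma adjusted p = 0.73, 0.349 and 0.237). The genes most like IFI27L1 over 12 libraries were INO80E (r = 0.926), RPS2 (r = 0.892) and KIF26A (r = 0.881). INO80E encodes a subunit of the INO80 chromatin remodeller, RPS2 is a ribosomal protein gene and KIF26A a kinesin family gene. Each gene was chosen as the highest among all other tested genes, and these correlations describe the libraries and carry no test.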

How the data were processed

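Total RNA of 12 TE-1 libraries was sequenced, and the sample titles gave the group and replicate number. The authors deposited FPKM values for genes and for annotated and assembled transcripts, and a gene's FPKM equals the sum of its transcripts. Per the submitters' processing notes, the tools were HISAT2, StringTie, Cuffdiff and edgeR, without version or role. No source used here gives the genome build, the annotation or the strand setting. Of the 41 transcripts, 37 matched GENCODE 29 identifiers and 34 had the same bounds. Whether a group's libraries are separate cultures is not in the labels, and p-values therefore reflect a spread between libraries that may be technical.

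No read totals were used. For single-transcript genes, low values fell on steps (60.0% to 66.6% within 0.05 of a whole step, with 10% by chance), too few to recover whole reads, so no count test was run. Library depths differed by a factor of at most 1.29 on these steps. Features averaging 1 FPKM or more were tested as log2(FPKM + 1) with limma 3.58.1 (R 4.3.3, data.table package version 1.17.8), as 1 group-means model of all 12 libraries with 8 residual degrees of freedom and a trended prior. Fold changes on this scale understate the change of low genes. P-values were two-sided and Benjamini-Hochberg adjusted over all features tested. IFI27 and IFI27L2 lay under the filter and were also fitted without it. Single values were compared by exact permutation in Python (scipy 1.17.1). The share of all features whose groups do not overlap was not computed, so a lack of overlap is a description of the libraries. The fit was tested on simulated data.

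The members and gene lists were chosen with earlier results of these data known. The text names the 4 genes, their transcripts with a mean of at least 0.1 FPKM, overlapping transcripts and neighbouring genes, the 3 genes of highest r for each tested member, and the 2 interferon list genes of smallest p per comparison. OAS1 was not matched by symbol and is not analysed here, and 1 other list gene is not reported by name. Alternatives were no filter, a pseudocount of 0.1, a minimum of 5 FPKM, median-of-ratios and quantile scaling, no trend, a robust prior, a replicate block, the deposited genes of all annotated types, only the libraries compared, and leaving out each library.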

Additional observations from a re-analysis of the deposited data

Results flagged for a closer look

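The effect of overexpression and the effect of the hairpin differed, by a limma test of the difference itself (overexpression effect minus hairpin effect, on the log2 scale), for 3 features of the IFI6 locus. The difference was 4.27 for IFI6, 4.44 for its transcript IFI6-202 (limma adjusted p = 0.000552) and 3.69 for the overlapping TCONS_00003259 (limma adjusted p = 0.000431). In the OE_IFI6 libraries these levels may include reads from the vector.

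It also differed for 5 of the 38 tested interferon-stimulated genes, named after their values were seen, against 1.51% of all tested genes that fell in this contrast. The difference was -2.13 for OASL, -1.58 for IFI44, -1.48 for ISG15, -1.37 for LY6E and -0.77 for BST2 (limma adjusted p from 0.000254 for OASL to 0.0465 for BST2). Without 1 library in turn the count was 3 to 6. In each of the 5, OE_control was above sh_control in limma, and OE_IFI6 did not pass against sh_control.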

How the results depend on the processing

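IFI6 kept its rise over OE_control under all alternatives (log2 3.42 to 3.75), and IFI27L1 and IFI27L2 passed in none. The fits of IFI27 and IFI27L2 with no filter under each alternative were added after seeing the data. Without 1 library the log2 difference of IFI27 against OE_control was -1.03 to -0.64 (limma adjusted p = 0.0023 to 0.078; -0.81 without OE_IFI6 replicate 1, -0.76 without OE_IFI6 replicate 2, -0.64 without OE_control replicate 1 and -0.76 without OE_control replicate 3), and at an unchanged -0.81 it was not past the threshold in the table of all annotated genes (0.05) or with only the libraries compared (0.18). Without OE_control replicate 2 the difference of effects for IFI27 passed (-1.19, adjusted p = 0.0078; range without 1 library -1.19 to -0.81), as did OE_control against sh_control (0.78, adjusted p = 0.0082; range 0.39 to 0.78). The cause was not tested.

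Counts of interferon list genes moved more. The 2 that rose against OE_control became 1 with no filter or quantile scaling, and 0 with the replicate block or only the libraries compared. Without 1 library they became 0 to 1. With a minimum of 5 FPKM neither was tested, since SAMHD1 averaged 3.95 FPKM and IFIT5 1.195 FPKM over the 12 libraries. OASL (3.51 FPKM) and IFI44 (2.35 FPKM), among other list genes, also left the test at that minimum. All counts given for it are therefore over fewer genes. The 8 that fell became 4 with a minimum of 5 FPKM, which tests fewer genes, 4 with only the libraries compared, and 5 to 8 without 1 library. In the difference of effects, 5 fell, against 3 with a minimum of 5 FPKM or quantile scaling and 3 to 6 without 1 library, and 0 rose, against 0 to 1 without 1 library. Between the controls, 9 rose, against 5 with a minimum of 5 FPKM and 4 to 9 without 1 library, and 1 fell, against 0 with quantile scaling or only the libraries compared and 0 to 2 without 1 library.

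Same-numbered libraries of the overexpression arm had residual correlations of 0.0872, 0.254 and 0.124 and those of the hairpin arm -0.0432, -0.00953 and -0.0344. Differently numbered libraries were not compared, so these values cannot decide whether the numbers pair the libraries. With the replicate block, 802 genes in place of 837 passed in OE_IFI6 against OE_control and 0 in the hairpin arm, and the log2 values of IFI6 were 3.62 and -0.64 as before. Values near or under 1 FPKM, as for IFI27, IFI27L2 and most transcripts of the family, are limited by depth.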
